A study of Gallus gallus with 9 samples.

Results

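The control libraries of a chick embryo experiment are described here: sorted GFP-positive cells of 4 embryos that received GFP alone, out of 9 libraries in the series. They were taken by their labels, as the 4 samples electroporated with GFP. The other 5 libraries, from embryos given a PtcDLoop2 construct with GFP, were not used. Embryos at Hamburger-Hamilton stages 12 to 13 were electroporated with the pMES vector, which expresses GFP and no other construct. They were harvested 14 h later, at about stage 16. The trunk posterior to the heart, left and right, was cut out, dissociated with trypsin and sorted embryo by embryo, and the labels call the tissue coelomic epithelium. The protocol speaks of 5 sorted pMES embryos, of which 4 are analysed here, and the series text calls all libraries separate biological replicates. The sort selects cells that took up the vector and not cells of a named type, and no ages, sexes or cell numbers were used.

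The coelomic epithelium is the sheet of mesoderm that lines the embryonic body cavity. It later forms the mesothelium, and some of its cells leave the sheet and become mesenchyme that contributes to the organs and vessels beneath it. Hedgehog ligands secreted by the gut endoderm are among the signals that reach the mesoderm around the gut. The control embryos received no Hedgehog inhibitor, so they give the level of each transcript and its spread between embryos after electroporation with GFP alone.

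The deposited values are normalized read counts: reads per gene divided by 1 size factor per library. They are not divided by gene length, so an order of genes by value is an order of reads and not of transcript molecules. One read was worth between 0.821 and 1.09 normalized counts, depending on the library, and each value was a whole multiple of that amount. The recovered totals were 11568553 reads in control 1, 11073241 in control 2, 11976863 in control 3 and 11292863 in control 4, so depth was close in all 4. A gene without a read has an upper limit of 3 reads by counting error alone, between 2.46 and 3.28 normalized counts. The table lists 12155 genes by Ensembl number. None of the numbers could be matched to a name, 0 of 12155, so the marker genes of coelomic epithelium and of other tissues were not analysed here and the tissue label was not checked against them. In such bulk samples, fewer cells of a type and less RNA per cell cannot be told apart.

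Most listed genes were present in every control embryo, where present means at 10 or more normalized counts. Of the 12155 genes, 7824 or 64.4% reached 10 normalized counts in all 4 libraries, 2849 or 23.4% in 1 to 3 libraries and 1482 or 12.2% in none. The 7824 genes held between 98.6% and 99.4% of the normalized counts of a library. The 2849 partly present genes held between 0.58% and 1.41%, and the 1482 genes under 10 in all 4 libraries at most 0.0383%. The highest value of these 1482 genes had a median of 4.9, so most of them were low and not without reads. The median gene present in all 4 had a mean of 328 normalized counts, against 14.5 for the partly present genes. Of the listed genes, 174 were without a read in all 4 controls, and 9479 had a read in all 4. All these shares are of the listed genes and not of all chick genes. The reference used here has 25635 genes, and how the 12155 were chosen was not examined.

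Control 4 had fewer genes at this level than the others. It had 8824 genes at 10 or more, against 9245 in control 1, 9511 in control 2 and 9521 in control 3 (mean 9275 ± 327, SD, n = 4). The number of genes with any read was 10303 in control 4 and 10901, 11182 and 11357 in controls 1, 2 and 3. At 100 or more normalized counts control 4 had 5993 genes, against 6120, 6208 and 6227 in controls 1, 2 and 3. At 1000 or more normalized counts the 4 libraries held 1763, 1702, 1757 and 1732 genes, and control 4 lay within the range of the others. The number of genes at a level thus set control 4 below the others at 10 and at 100 normalized counts and not at 1000.

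The partly present genes were mostly genes missing from 1 library or found in 1 library, where missing means under 10 normalized counts. Of the 2849, 1097 were present in 3 libraries, 762 in 2 and 990 in 1. Among the 1097 genes, 596 were missing from control 4 alone, 264 from control 1, 142 from control 3 and 95 from control 2. The genes present in 1 library alone were spread almost evenly, with 254 in control 1, 243 in control 2, 255 in control 3 and 238 in control 4. These single-library genes were low, with a median of their highest value between 15.6 and 18.6 normalized counts. Many genes lay close to the limit: 98 genes had their lowest library between 9 and 10 and 76 between 10 and 11.

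**Figure D1:**
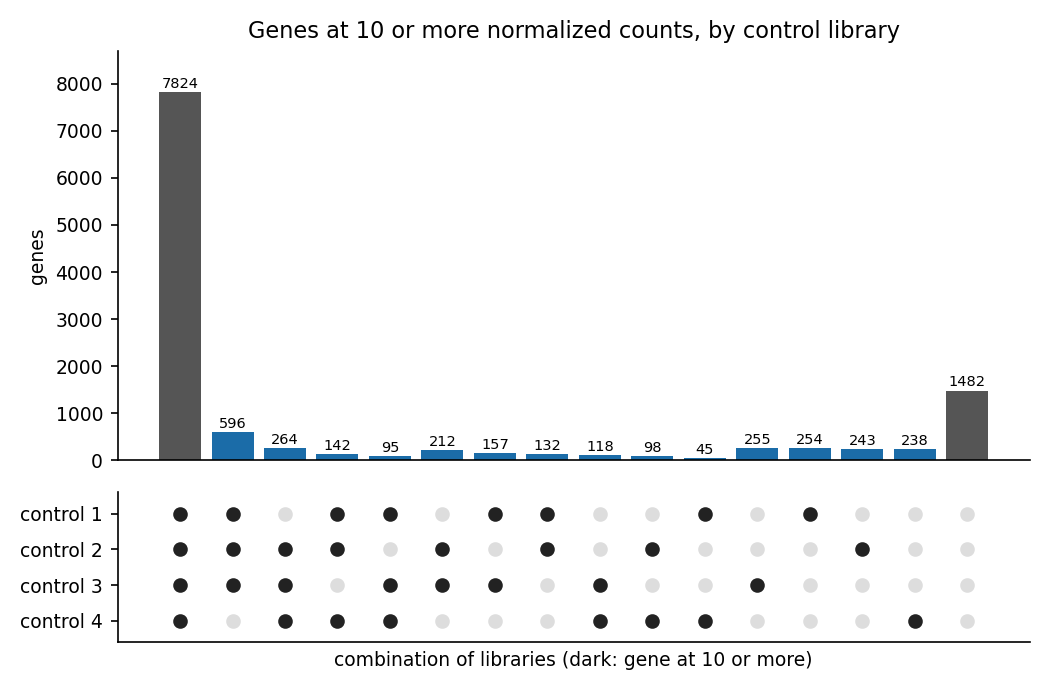
Number of genes (y axis) for each combination of control libraries in which a gene had 10 or more normalized counts; dark dots under a bar mark the libraries. The bar for genes missing from control 4 alone, at 596, is the highest after the bars for all 4 libraries (7824) and for none (1482).

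Genes without a read in control 4 were not restricted to genes that were low elsewhere. Among genes with a mean of 10 to 30 normalized counts in the other 3 controls, 395 of 1463 or 27.0% had no read in control 4. The same measure gave 162 of 1406 in control 1, 102 of 1384 in control 2 and 86 of 1376 in control 3. Among genes at 30 to 100 in the others, 153 of 1921 had no read in control 4, against 41, 22 and 27 in controls 1, 2 and 3. If reads were independent molecules, counting error would leave at most 0.0139 genes without a read in the 10 to 30 class of any library. At 100 to 300 in the others, 30 of 2154 genes had no read in control 4, 12 of 2136 in control 3, 1 in control 1 and none in control 2. At 300 to 1000 it was 9 of 2390 in control 4 and 6 of 2375 in control 3. At 1000 or more it was 1 of 1761 in control 4 and 2 of 1761 in control 3. Controls 1 and 2 had none in these last classes.

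**Figure D2:**
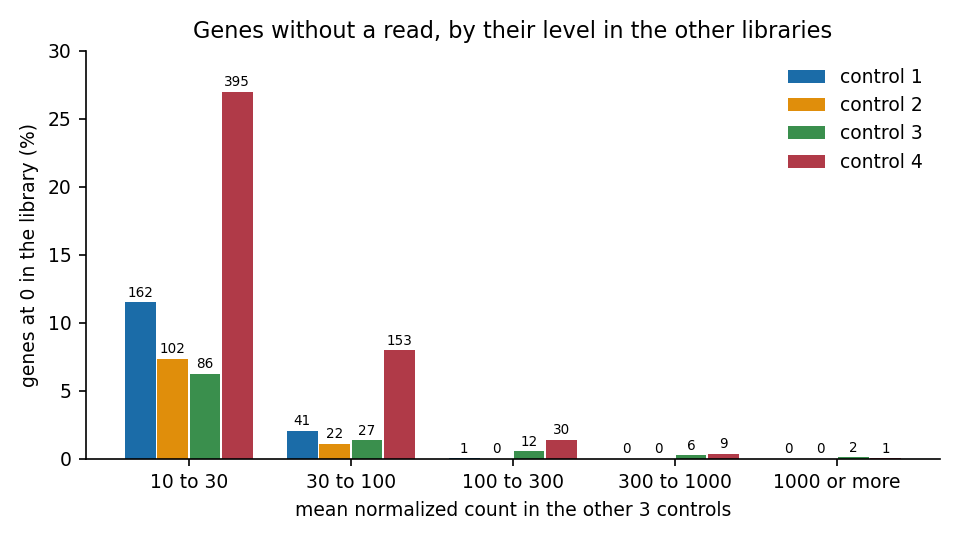
Share of genes without a read in a control library (y axis, percent) by their mean normalized count in the other 3 controls (x axis), with the number of genes above each bar. Control 4 has the highest share in the classes up to 1000; above 1000 control 3 has 2 such genes and control 4 has 1.

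A group of genes was absent or nearly absent from 1 embryo although high in the others. It overlaps with the genes without a read counted above. With limits of at least 100 normalized counts in 3 embryos and at most 2 in the remaining embryo, 27 genes were lacking from control 4 and 17 from control 3. No gene was lacking in this way from control 1 or control 2. For scale, 6306 of the listed genes had a mean of 100 or more over all 4 controls. The 2 libraries differed among low genes. At 10 to 30 in the others, 6.25% of genes had no read in control 3, the lowest share, and 27.0% in control 4, the highest. The 17 genes lacking from control 3 lay between 114.8 and 7659.6 in the other controls and at most at 1.6 in control 3. The 27 genes lacking from control 4 lay between 104.2 and 8842.4 in the other controls and at most at 1.1 in control 4. The opposite pattern, 100 or more in 1 library and at most 2 in the other 3, was met by 1 gene in control 2 and 1 in control 4.

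The genes with the largest spread among those with a mean of 100 or more both belonged to the group lacking from control 3. ENSGALG00000001756 had 7659.6 normalized counts in control 1, 5633.9 in control 2, 1.6 in control 3 and 6483.9 in control 4. ENSGALG00000000386 had 3007.1, 2398.7, 0 and 2032.5 in the same order. Both were within a narrow range in 3 embryos and at or near 0 in control 3, where 2 reads and 0 reads were counted. Their SD of log2(value + 1) was 5.65 and 5.63, against a part from counting error of 0.020 and 0.032.

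A few genes took a large part of each library. The single most abundant gene held 6.19% ± 1.74 of the normalized counts (SD, n = 4), the 10 most abundant 24.7% ± 6.67, the 100 most abundant 42.8% ± 6.03 and the 1000 most abundant 73.6% ± 2.90. The share of the 10 most abundant genes was 24.9% in control 1, 23.7% in control 2, 17.1% in control 3 and 33.3% in control 4. Controls 1 and 2 were close, and controls 3 and 4 lay on either side of them. It took 187 genes to reach 50% of the counts in control 1, 214 in control 2, 281 in control 3 and 94 in control 4. For 90% of the counts it took between 2403 genes, in control 4, and 2954, in control 3. The lower-ranked 50% of the listed genes held between 1.02% and 1.68% of a library.

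The same genes led every library. ENSGALG00000018373 was the most abundant gene in all 4 controls and ENSGALG00000018367 ranked 2 in all 4. Of the 10 most abundant genes of each library, 8 were shared by all 4 and 12 genes made up the 4 lists. Of the 100 most abundant, 66 were shared by all 4 libraries and 36 genes were in the list of 1 library, 18 of them in that of control 1. Of the 1000 most abundant, 673 were shared by all 4, and they held between 61.7% and 71.0% of a library.

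The leading genes were highest in control 4. ENSGALG00000018373 had 708562.6 normalized counts in control 1, 610986.6 in control 2, 388620 in control 3 and 1004743.3 in control 4. ENSGALG00000018367 had 388077.9, 354766.5, 263829.8 and 503068.3 in the same order. In both genes control 4 was highest and control 3 lowest, and control 4 exceeded control 3 by 2.59 and 1.91 times. ENSGALG00000018368 had 274261.4 in control 1, 272977.5 in control 2, 188593.5 in control 3 and 469247 in control 4. ENSGALG00000018360 had 220436.9, 276643.1, 222677.6 and 450352.5, so that controls 1 and 3 nearly coincided and control 4 stood above the rest. The SD of log2(value + 1) of these 4 genes was between 0.38 and 0.57, and counting error contributed at most 0.0026.

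These 4 genes belong to an unbroken run of 32 identifier numbers, ENSGALG00000018356 to ENSGALG00000018387, all of which are listed in the table. The run was singled out after its values had been seen, and what its genes encode was not looked up here. It held 24.6% of the normalized counts in control 1, 23.7% in control 2, 16.8% in control 3 and 34.7% in control 4. It had 12 genes with a mean of 10000 or more, and all 12 were highest in control 4, with 11 of the 12 lowest in control 3. Of all 32 genes, 27 were highest in control 4, 5 in control 1 and none in controls 2 or 3. Over all 9678 genes with a mean of 10 or more, control 4 was highest in 28.9% and control 3 lowest in 21.5%. Among the 112 genes at 10000 or more, which include the 12 of the run, these shares were 41.1% and 32.1%. The difference between control 4 and control 3 had a median of 1.50 on the log2(value + 1) scale over the 32 genes, from 0.33 to 3.10. The run was not uniform in level: 13 of its genes had a mean under 100, down to 6.25 normalized counts.

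Outside the run the 4 libraries were alike in how their counts were distributed. Without the 32 genes, the 10 most abundant genes held 8.87% in control 1, 7.92% in control 2, 7.22% in control 3 and 8.34% in control 4. The number of genes needed for 50% of the remaining counts was 476, 489, 467 and 438 in the same order, where it had ranged from 94 to 281 with the run. The 100 most abundant genes held 25.6% ± 0.78 (SD, n = 4) without the run, against 42.8% ± 6.03 with it. The normalized counts outside the run summed to between 7816128.7 and 8177367.3, and the reads outside it to 8718926, 8446074, 9964737 and 7375850 in controls 1 to 4. Control 4 had the largest share of reads in the run, the fewest reads for all other genes and the fewest detected genes. Control 3 had the most reads outside the run and the most detected genes, 11357. Controls 1 and 2 did not keep this order: control 1 had more reads outside the run but fewer detected genes, 10901 against 11182. The part of the run in the number of detected genes was not tested. Outside the run, ENSGALG00000014442 was the most abundant gene in all 4 libraries, with 218846.2, 141108, 111132.4 and 144742 normalized counts. It was highest in control 1, so its order of embryos was not that of the run.

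**Figure D3:**
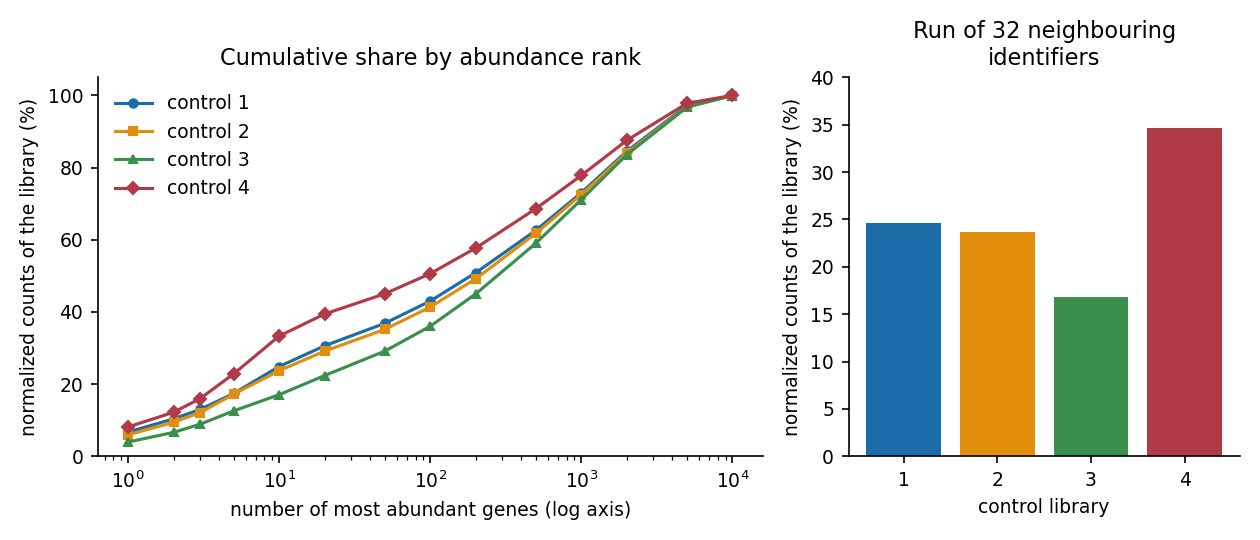
Left, cumulative share of a library's normalized counts (y axis, percent) held by its most abundant genes (x axis, number of genes, log scale) in the 4 controls. Right, share of each control library held by the 32 genes with neighbouring identifiers. The curves are apart at 10 genes, from 17.1% to 33.3%, and the bars follow the same order of libraries, from 16.8% in control 3 to 34.7% in control 4.

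The spread between embryos fell with abundance over the classes below but did not keep falling among the most abundant genes. Many of these most abundant genes belong to the run of 32 identifiers. The spread was measured for each gene as the SD over the 4 controls of log2(value + 1). Genes were placed in classes by their mean over all 4. The 3372 genes with a mean of 10 to 100 had a median SD of 1.12, and the middle 50% of them lay between 0.69 and 1.95. The 4542 genes at 100 to 1000 had a median SD of 0.50 (0.32 to 0.75), and the 1652 genes at 1000 to 10000 a median of 0.32 (0.21 to 0.51). The 112 genes at 10000 or more had a median of 0.27 (0.15 to 0.45). Within the run of 32 identifiers the median SD was 0.85 in the 13 genes under 100, 0.55 in the 7 genes from 100 to 10000 and 0.58 in the 12 genes at 10000 or more. Without control 4 the classes from 1000 to 10000 and at 10000 or more had the same median, 0.28, so the fall over this last step was not seen. The medians of these classes were 0.25 and 0.17 without control 1, 0.35 and 0.28 without control 2, and 0.32 and 0.26 without control 3. With all 4 libraries but without the run, they were 0.32 and 0.23. Genes under 10 are left out of this order, since at very low values the added 1 holds the log2 values together.

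The ratio of the highest to the lowest embryo shows the same fall. With 1 added to both values, its median was 5.69 in the class from 10 to 100, 2.16 from 100 to 1000, 1.65 from 1000 to 10000 and 1.49 at 10000 or more. Of the 1652 genes at 1000 to 10000, 1140 or 69.0% stayed within 2 times between the highest and lowest embryo, and 48 exceeded 8 times. Of the 4542 genes at 100 to 1000, fewer stayed within 2 times, 1968 or 43.3%, and 317 exceeded 8 times. In the class from 10 to 100, 352 of 3372 genes stayed within 2 times and 1387 exceeded 8 times.

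Counting error was a small part of this spread in the classes at 10 or more. Its expected SD was 0.23 in the median gene at 10 to 100, 0.079 at 100 to 1000, 0.033 at 1000 to 10000 and 0.012 at 10000 or more. The median counting variance of a class was 4.08%, 2.50%, 1.06% and 0.182% of its median observed variance, in the same order. For genes under 10 it was 17.4%. The observed SD exceeded the counting part in 3309 of the 3372 genes at 10 to 100 and in all 112 at 10000 or more. Among the 2477 genes under 10 it did so in 2086. The remainder holds differences between embryos together with those from dissection, sorting and library preparation, which cannot be told apart with 1 library per embryo.

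**Figure D4:**
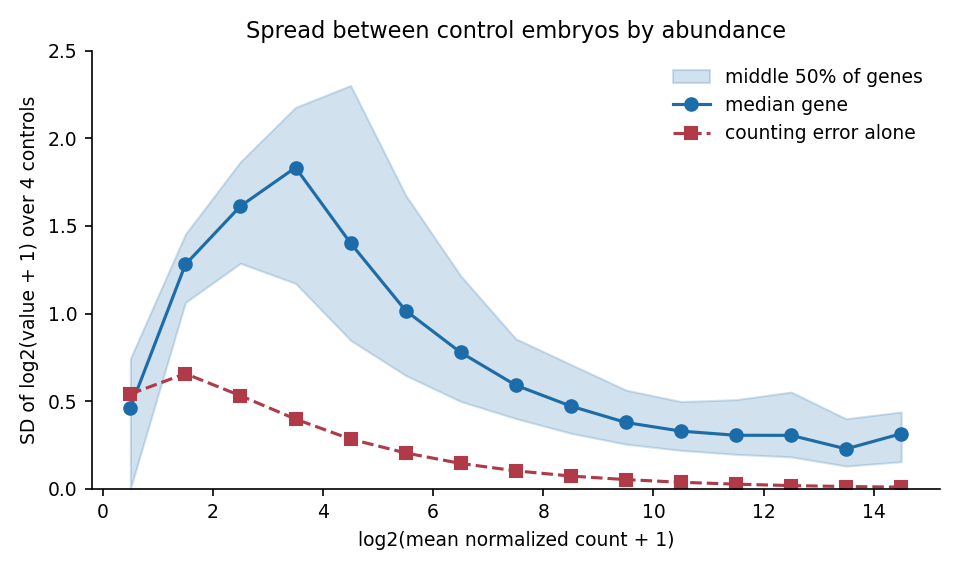
SD of log2(value + 1) over the 4 controls (y axis) by log2 of the mean normalized count plus 1 (x axis), for bins of 1 log2 unit with at least 20 genes. The blue line is the median gene, the band the middle 50% of genes and the dashed line the part that counting error gives. The median rises from 0.46 in the bin from 0 to 1 to 1.83 in the bin from 3 to 4. It then falls to 0.31 in the bin from 11 to 12. In the drawn bins above that it is between 0.23 and 0.31 with no further steady fall. Bins with fewer genes are not drawn. Their median was 0.19 from 15 to 16 (7 genes), 0.42 from 16 to 17 (4 genes) and 0.65 from 17 to 18 (4 genes). ENSGALG00000014442 is the only gene from 17 to 18 outside the run of 32 identifiers. The genes ranked 1 to 5 by mean lie above 18 and are in no bin. All of them belong to the run, and their SDs are between 0.38 and 0.57.

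Leaving out control 4 or control 1 lowered the median SD in the 3 classes from 10 to 10000. Without control 4 it was 0.85 at 10 to 100, 0.40 at 100 to 1000 and 0.28 at 1000 to 10000, and without control 1 it was 0.98, 0.42 and 0.25. A median SD over 3 libraries tends to be lower than over 4, so part of each drop can come from the number of libraries. In the same classes it was 1.17, 0.53 and 0.35 without control 2 and 1.17, 0.49 and 0.32 without control 3. At 10000 or more the median SD was 0.17 without control 1, a change of over 1.5 times, and 0.28 without control 4. In that class control 1 was the highest of the 4 in 32.1% and the lowest in 37.5% of these genes. Control 4 was the highest of the 4 in 41.1% of the genes at 10000 or more, a class that holds 12 genes of the run, and the lowest in 12.5%. In the class from 10 to 100 control 4 was the lowest in 37.0% of genes and control 2 in 15.4%. Control 2 was the least extreme library, the highest in 19.6% and the lowest in 15.1% of all 9678 genes with a mean of 10 or more.

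Among genes with a mean of 100 or more, the SD was under 1 in most and over 2 in few. Of these 6306 genes, 3613 or 57.3% had an SD under 0.5 and 5583 or 88.5% an SD under 1. An SD over 2 was seen in 160 genes, and 43 of the 6306 had no read in at least 1 control. In 99 of the 160 genes the library farthest from the median was control 4, and in all 99 it was below it. It was control 3 in 30 genes, 27 of them below the median, control 1 in 28 and control 2 in 3.

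The steadiest genes had a spread close to or below that of counting error. ENSGALG00000015933 had 1589.8 normalized counts in control 1, 1588 in control 2, 1563.3 in control 3 and 1590.3 in control 4, with a coefficient of variation of 0.826%. ENSGALG00000011993 had 3220.6, 3230.6, 3332.6 and 3210.2, with 1.74%. Both had almost the same value in all 4 embryos, with control 3 the one apart. Their SD of log2(value + 1), 0.012 and 0.025, stood against 0.035 and 0.025 from counting error. They are the lowest of 6306 genes, and a value this low can come from that choice.

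The genes that stood out most above the rest in 1 embryo were all low. Genes lacking from 1 embryo were not part of this choice. ENSGALG00000016744 had 77.6 normalized counts in control 1, from 85 reads, and none in the other 3. ENSGALG00000011806 had 94.4 in control 2, from 102 reads, and ENSGALG00000004930 had 71.4 in control 3, from 87 reads, each with no read elsewhere. ENSGALG00000011801 had 116 in control 4, from 106 reads, 1.6 in control 3 and none in the others. These were the genes with the largest excess of 1 library over the highest of the rest, on the log2(value + 1) scale. The highest value of any gene at 100 or more in 1 library and at most 2 in the other 3 was 145.3.

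**Figure D5:**
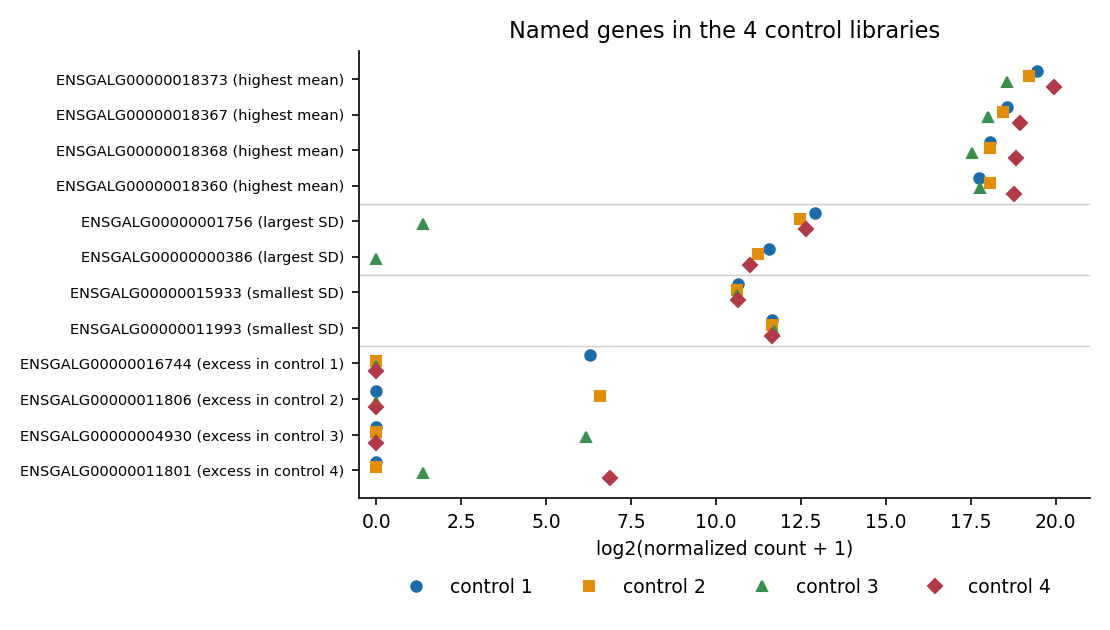
Values of the 12 named genes (rows) in the 4 control libraries (points) as log2(normalized count + 1) (x axis). The highest genes have control 4 to the right, those of the largest SD show control 3 at or near 0, those of the smallest SD coincide, and each gene of the last group has 1 point apart from the rest.

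Controls 2 and 3 resembled each other most and controls 1 and 4 least. Across all 12155 genes, which are not independent replicates, the Pearson correlation of log2(value + 1) was 0.921 between controls 2 and 3, 0.910 between 1 and 2, 0.896 between 1 and 3, 0.887 between 2 and 4, 0.872 between 3 and 4 and 0.856 between 1 and 4. The mean over the 6 pairs was 0.890, and 0.909 over the 3 pairs without control 4. For genes with a mean of 100 or more, the median absolute difference between 2 embryos was between 0.35, in controls 2 and 3, and 0.63, in controls 1 and 4, on the log2(value + 1) scale. A difference of over 3 log2 units was met by 43 of these genes between controls 2 and 3 and by 269 between controls 1 and 4, and over all genes by 582 and 1590.

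Over all genes, single libraries departed from the rest in different directions. Control 4 lay below the median of the other 3 by over 3 log2 units in 966 genes, 605 of them without a read, and above it in 201. Control 3 lay above the median of the others in 439 genes and below it in 169. Control 2 had 332 genes above and 163 below, and control 1 had 349 above and 439 below. A gene with few reads in the other libraries can lie that far above their median but not that far below it. Among the 9678 genes with a mean of 10 or more, control 1 had 167 above and 329 below, and control 2 had 137 and 116. Control 3 had 183 and 128 there, and control 4 had 97 and 785. Among genes with a mean of 100 or more, control 1 had 27 above and 62 below, control 2 had 7 and 6, control 3 had 18 and 34, and control 4 had 9 and 145. For control 3 most deviating genes lay above the median over all genes and below it among these more abundant ones.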

How the data were processed

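The 4 control GFP libraries were described and no groups were compared, so no test between groups was run. Per the submitters' processing notes the build was galGal4, and the tools listed are DESeq, DESeq2, HTSeq 0.6.1p1, STAR 2.4 and cutadapt 1.8.3, without settings. The values deposited by the authors are gene counts scaled by library size factors and given to 1 decimal: each of the 48620 control values was within 0.06 of a multiple of the worth of 1 read. The reference table has 25635 genes, 0 with an Ensembl identifier. No pair of libraries agreed within sampling noise (chi-square per degree of freedom from 71.5 to 174), so all 4 were counted as separate libraries; this does not show their origin.

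Genes were ranked within each library. The counting part of an SD came from the delta method for Poisson reads. Named genes were the 4 highest means, the 2 largest and 2 smallest SDs at a mean of 100 or more, and the largest excess of each library; this rule, the classes and limits were chosen with earlier results of these data known. Intervals and floors cover counting error only, as reads are not independent molecules. Alternatives changed the limit, scaling, added constant, gene filter, measure of spread or libraries. The fixed marker lists were not analysed here. Pandas 2.3.3 and matplotlib 3.10.9 were used in Python 3.11.15.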

Additional observations from a re-analysis of the deposited data

Results flagged for a closer look

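The values of 14 library measures and genes were examined for a library far from the other 3, where chance marks about 1 in 20. Of these, 2 were marked, both genes named for their small spread. Control 3 had 1563 normalized counts of ENSGALG00000015933, where the other 3 lay between 1588 and 1590.3. Control 3 had 3333 normalized counts of ENSGALG00000011993, where the other 3 lay between 3210.2 and 3230.6. These genes were picked for 4 nearly equal values, so a small gap is a large part of their range. No measure or gene was marked for control 4, whose gaps reached 0.604 of the range of the 4 libraries in genes at 10 or more, 0.695 in ENSGALG00000018368 and 0.756 in ENSGALG00000018360. With 4 libraries only a very large gap can be marked, so this says little.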

How the results depend on the processing

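Of 100 values recomputed for 11 results, 80 stayed within their limit and 20 moved. The limit was 1.5 times for the numbers of genes present in all, some or no libraries. For shares of counts and genes holding 50% of counts it was 1 SD between libraries. For the mean correlation it was 1 SD over the 6 pairs of libraries. For the median SD of a class it was 1 SD over the values with 1 library left out. The number of genes present in no library was 782 at a limit of 5 normalized counts, 2310 at 20 and 3694 at 50, as fewer genes pass a higher limit. Without the run of 32 genes, chosen after seeing the data, the 10 and 100 most abundant genes held 8.09% and 25.6%, and 467.5 genes on average reached 50% of counts. In the class from 10 to 100 the median SD was 0.94 with 5 added in place of 1 and 0.95 for genes above 0 in all 4. With the median absolute deviation it was 0.78, 0.36, 0.24 and 0.18 from the lowest class to the highest. That deviation was scaled by the factor for large samples, which gives low values with 4 libraries. These moves therefore cannot show a dependence on the measure of spread. With the range, scaled for 4 values, the medians were 1.22, 0.54, 0.35 and 0.28, and none moved. With 1 library left out, the median SD ran from 0.85 to 1.17, from 0.40 to 0.53, from 0.25 to 0.35 and from 0.17 to 0.28. The mean correlation was 0.841 for genes with a mean of 10 or more, 0.819 for 100 or more and 0.915 by Spearman. The cause of these moves was not tested, beyond the genes left out. No paired analysis was possible because the libraries of 1 group are described and no groups are compared. Depth limits statements on genes under about 3 reads.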
